A study of Mus musculus with 18 samples.

Results

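The respiratory chain is the set of protein complexes of the inner mitochondrial membrane that carry out oxidative phosphorylation. Its nuclear-encoded genes were taken here as every row of the deposited count table whose symbol follows the naming of the structural subunits (Nduf with a, b, c, s or v and a number, Sdha to Sdhd, Uqcr, Cox4 to Cox8, and Atp5). Subunits with other kinds of symbol, such as Cyc1 of complex III and Ndufab1 of complex I, fall outside this rule. The rule found 84 of the 24602 genes in the table. By name, 35 belong to complex I, 4 to complex II, 8 to complex III, 17 to complex IV and 15 to complex V. The other 5, Ndufa4, Ndufa4l2, Cox7a2l, Atp5s and Atp5sl, carry the names of subunits but are known under other roles, and were kept apart from the complexes.

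As background, complexes I and II pass electrons from NADH and succinate to ubiquinone, complex III passes them to cytochrome c, and complex IV passes them to oxygen, while complexes I, III and IV pump protons and complex V uses the proton gradient to make ATP. Every complex but II also holds subunits encoded by mitochondrial DNA, so its assembly draws on both genomes. In the kidney the proximal tubule, which reabsorbs most of the filtrate, is the segment best known for its dependence on this pathway.

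The study sequenced RNA of mice of strain 129S1/SvlmJ that carry a knock-in of the R388W change in Nup93, which encodes a scaffold nucleoporin of the nuclear pore, and it compared nuclear with total RNA. There were 6 groups of 3 libraries: nuclear RNA of R388W/R388W (Hom), R388W/+ (Het) and wild-type (WT) mice, and total RNA of Hom, Het and WT mice. The series text speaks of isolated podocytes, while the sample labels give only mouse tissue, and no age, sex or number of animals is stated. Counts per gene cannot show which Nup93 allele a library carries, and Nup93 itself lay between 15.0 and 23.4 CPM (counts scaled to library size) in all 18 libraries.

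The libraries held 17405493 to 23462056 counts. For Total WT replicate 1 this is what remained once the counts of all 9 nuclear libraries, which its deposited column contained, were taken off. CPM were scaled with TMM factors (trimmed mean of M values, which sets the bulk of genes equal between libraries). The 12 podocyte markers summed to 582 to 836 CPM on group average and the 20 proximal tubule markers to 40655 to 76833 CPM, and these levels go against RNA of podocytes alone. Xist, which is transcribed from the inactive X chromosome, lay at 496 to 517 CPM in nuclear Hom, 493 to 543 in nuclear Het and 0.41 to 0.77 in nuclear WT, and at 1.01 to 1.67 in total Hom, 0.34 to 1.18 in total Het and 333 to 352 in total WT. Nuclear and total libraries labelled with the same genotype thus differed in Xist state (high or low), which in mice goes with sex. Whether the fractions of a genotype came from different animals, or whether labels were exchanged, cannot be told from the labels. Every nuclear-to-total comparison, and any Hom with Het difference set side by side between fractions, carries this limit and speaks of the libraries as labelled. In every comparison but Hom with Het within a fraction, the effect of genotype or fraction cannot be told apart from that of Xist state. Since the labels do not say whether replicates were separate animals, the p-values reflect only how much the 3 libraries of a group varied, and this variation may be technical. Total Hom replicate 2 stood apart, with 7.12% of its counts on the ribosomal RNA gene Rn45s. Without it, 63 of the 81 tested genes were lower in total Hom than in total Het and 11 higher, against 62 and 11 with it. Against total WT, 68 were lower and 5 higher without it, against 68 and 6 with it. In bulk RNA, fewer cells of a type and less RNA per cell cannot be told apart.

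Of the 84 genes, 81 had enough counts for a test. Cox7b2 had 4 counts over all 18 libraries and Cox8c had 1, both being isoforms known from testis. Ndufs5, a small accessory subunit of complex I, was listed at 0 in all 18 libraries. If its reads could be counted, a 0 allows an expected count of up to 3 per library. Whether they could be counted is not known from the sources used here, so the 0 is not read as absence of expression. None of the 13 subunits encoded by mitochondrial DNA was found by symbol in the table used here, so they were not analysed. Many subunit genes have processed pseudogenes or near-identical paralogs, and how reads matching more than a single place were counted is not given in the sources used here, so the levels of such genes are uncertain by that amount.

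Promoters of respiratory chain genes are known for sites of NRF1, of ETS-family factors such as GABP (also called NRF2), and of YY1. Promoters (250 bases before to 50 bases after the RefSeq start, build GRCm38.p6) were found for 69 of the 84 genes, 3 of them under newer symbols. On either strand, the NRF1 consensus (its matches are the capitals in the Sdha and Atp5g3 promoters) was present in 17 of the 69 genes (24.6%), against 5.19% of all 27025 genes with a promoter. The ETS motif CCGGAAG was present in 16 (23.2%, against 9.93%) and the YY1 motif AANATGGC in 18 (26.1%, against 6.96%). The TATA motif TATAAA was present in 7 (10.1%, against 15.7%), and 44 of the 69 genes (63.8%, against 19.4%) held at least a single match to NRF1, ETS or YY1. The 5 promoters shown here stand for the kinds found: Sdha (chr13:74350191-74350490, minus strand) with 3 NRF1 matches, Atp5g3 (chr2:73911277-73911576, minus strand) with 1 NRF1 match, Cox6b1 (chr7:30626065-30626364, minus strand) with 1 ETS match, Atp5b (chr10:128083057-128083356, plus strand) with 1 YY1 match, and Cox6b2 (chr7:4753045-4753344, minus strand), the isoform of Cox6b1, with no match to these 3 motifs. Each is printed 5′ to 3′ along the gene, and capitals mark the matches.
Sdha: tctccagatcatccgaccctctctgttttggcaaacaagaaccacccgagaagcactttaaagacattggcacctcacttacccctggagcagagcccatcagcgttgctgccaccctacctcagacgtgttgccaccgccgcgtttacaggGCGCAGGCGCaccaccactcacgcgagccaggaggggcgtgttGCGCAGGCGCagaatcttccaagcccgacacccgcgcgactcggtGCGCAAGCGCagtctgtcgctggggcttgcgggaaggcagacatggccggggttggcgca
Atp5g3: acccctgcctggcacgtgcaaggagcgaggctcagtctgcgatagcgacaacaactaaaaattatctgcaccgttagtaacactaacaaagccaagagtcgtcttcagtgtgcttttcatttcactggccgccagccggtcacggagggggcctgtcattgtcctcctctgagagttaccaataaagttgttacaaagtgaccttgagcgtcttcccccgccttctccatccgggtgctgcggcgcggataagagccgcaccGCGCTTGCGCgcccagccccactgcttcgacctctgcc
Cox6b1: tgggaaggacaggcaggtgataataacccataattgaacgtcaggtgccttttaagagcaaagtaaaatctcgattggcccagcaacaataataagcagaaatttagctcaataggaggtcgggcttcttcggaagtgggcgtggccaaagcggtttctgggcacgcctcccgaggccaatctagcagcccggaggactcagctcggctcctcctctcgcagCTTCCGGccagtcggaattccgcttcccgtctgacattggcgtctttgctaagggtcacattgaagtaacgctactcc
Atp5b: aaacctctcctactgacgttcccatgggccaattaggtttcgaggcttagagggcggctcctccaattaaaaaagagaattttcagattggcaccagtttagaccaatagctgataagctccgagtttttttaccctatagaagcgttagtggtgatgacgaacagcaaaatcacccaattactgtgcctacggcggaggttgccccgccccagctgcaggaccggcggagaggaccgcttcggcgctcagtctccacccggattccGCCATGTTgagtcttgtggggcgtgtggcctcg
Cox6b2: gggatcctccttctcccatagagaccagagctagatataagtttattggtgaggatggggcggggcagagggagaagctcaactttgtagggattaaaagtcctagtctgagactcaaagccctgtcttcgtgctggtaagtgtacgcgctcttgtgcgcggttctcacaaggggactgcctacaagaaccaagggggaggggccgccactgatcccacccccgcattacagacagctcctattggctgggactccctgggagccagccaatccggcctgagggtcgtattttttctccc
A match describes letters in this window and is not evidence of binding.

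The 84 genes took up 2.86% ± 0.0542 of counts in nuclear Hom, 2.48% ± 0.0260 in nuclear Het and 2.72% ± 0.0218 in nuclear WT libraries, and 2.22% ± 0.0870 in total Hom, 2.49% ± 0.0168 in total Het and 2.73% ± 0.0282 in total WT libraries (SD, n = 3 each). On the TMM scale their summed level was 28051 ± 626 CPM in nuclear Hom, 23295 ± 500 in nuclear Het and 29169 ± 160 in nuclear WT, and 21587 ± 239 in total Hom, 26924 ± 180 in total Het and 26103 ± 260 in total WT (SD, n = 3 each). The order of Hom and Het was thus opposite in the 2 fractions: Hom stood above Het in nuclear RNA and below it in total RNA, on both scales. Of the 81 tested genes, 56 had their lowest group mean in total Hom and 15 in nuclear Het, while 34 had their highest in nuclear WT and 30 in nuclear Hom. The same was not counted over all genes, so these numbers cannot be called particular to the chain.

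**Figure D1:**
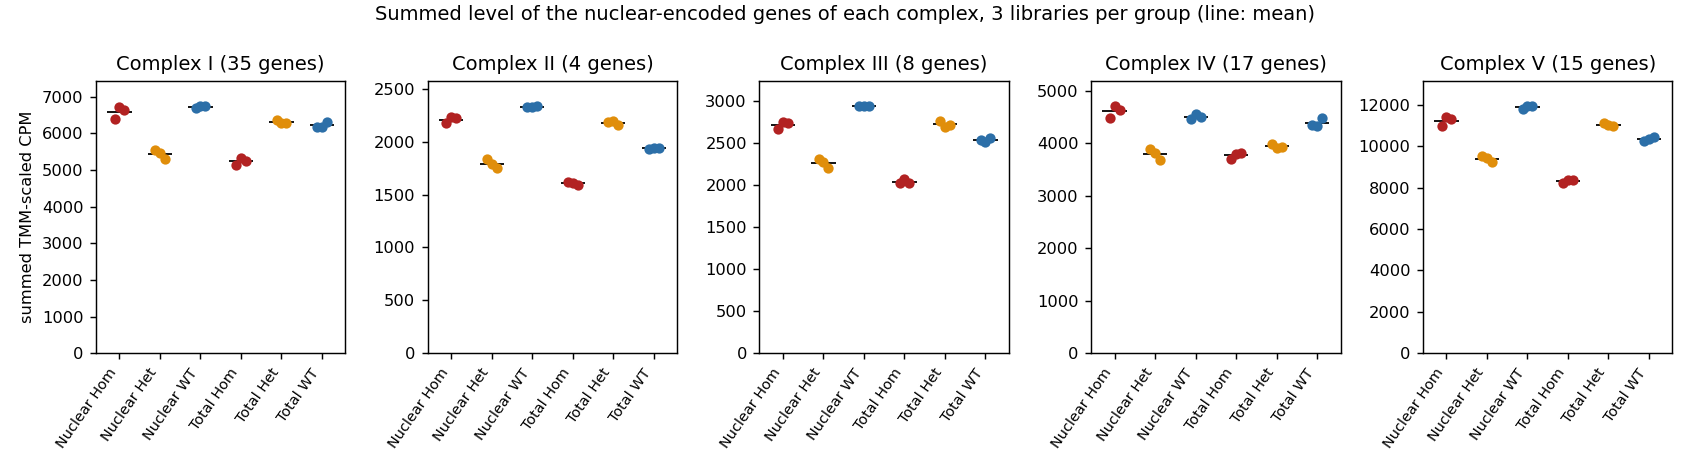
Summed TMM-scaled CPM of the genes of complexes I to V (vertical axes, each starting at 0) in the 6 groups, with a point per library and a line at the mean of 3 libraries. In each complex the nuclear Hom libraries lie above the nuclear Het libraries, and the total Hom libraries lie below the total Het libraries.

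The sums by complex followed the same order between Hom and Het on the TMM scale. Complex I summed to 6582 ± 172 CPM in nuclear Hom, 5441 ± 128 in nuclear Het and 6736 ± 25.9 in nuclear WT, and to 5237 ± 94.0 in total Hom, 6316 ± 49.1 in total Het and 6222 ± 84.1 in total WT. Complex V, the most abundant by counts, summed to 11234 ± 246 CPM in nuclear Hom, 9397 ± 166 in nuclear Het and 11906 ± 78.3 in nuclear WT, and to 8330 ± 76.7 in total Hom, 11033 ± 59.95 in total Het and 10345 ± 82.2 in total WT. On this scale the Hom and Het libraries of a fraction did not overlap in the sum of any complex. Complex IV stood out by its total WT level: 3768 ± 58.6 CPM in total Hom and 3945 ± 40.2 in total Het, against 4379 ± 81.9 in total WT. In summed TMM CPM, total Het was below total WT in complex IV and had the higher mean in complexes I, II, III and V (SD, n = 3 each). For complex I the libraries overlapped, at 6283 to 6373 CPM in total Het and 6168 to 6318 in total WT. Summed per kb, total Het was lower on average in complex I (6827 ± 63.0, against 6955 ± 103) and complex V (9141 ± 67.5, against 9188 ± 83.4). By gene, complex I had 18 lower and 11 higher in total Het, and complex V 7 and 5, against 30.3% and 30.9% of all genes. As shares of all counts, total Het was below total WT in each of the 5 complexes, and complex IV made up 0.387% ± 0.0164 of counts in total Hom, above the 0.364% ± 0.00350 in total Het.

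Levels between genes were compared per kb of the deposited gene length, as the mean over 18 libraries. Atp5b, the catalytic beta subunit of the F1 head, was highest of all at 1820 CPM per kb. Cox4i1, a subunit that contacts the catalytic core of complex IV, led its complex at 1361 CPM per kb. Uqcr10 led complex III at 515, Ndufb9 led complex I at 495 and Sdhb, the iron-sulfur subunit, led complex II at 385 CPM per kb. Ndufa4, long listed with complex I and now placed with complex IV, stood at 1003 CPM per kb. The tissue isoforms Cox4i2 and Cox6a2 were at the low end, at 1.09 and 3.09 CPM per kb.

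Hom was compared with Het within each fraction, the comparisons in which both groups had the same Xist state. In nuclear RNA, 77 of the 81 genes were higher in Hom by edgeR's quasi-likelihood test (adjusted p under 0.05) and none was lower, at an adjusted or at an unadjusted p under 0.05 and with DESeq2; over all genes tested, 21.4% were called higher and 21.8% lower. With library totals in place of TMM factors, which moved the all-gene median by -0.05, 75 of the 81 were higher and none lower, against 14.9% and 29.6% of all genes. The rises were even in size: the median log2 fold change was 0.26 over the 81 genes and 0.00 over all genes, and the medians of complexes I to V lay between 0.24 and 0.29. The 4 genes not called were Cox4i2, Ndufa4l2, Atp5s and Cox7a2l.

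In total RNA the same genes mostly lay the other way: 62 of 81 were lower in Hom than in Het and 11 were higher, against 34.1% of all genes called lower and 32.9% higher. The median log2 fold change was -0.26 over the 81 genes and 0.01 over all genes, and it was -0.25 for complex I, -0.42 for complex II, -0.43 for complex III, -0.19 for complex IV and -0.33 for complex V. With library totals, which raised the all-gene median by 0.15, 42 genes were lower and 18 higher, against 21.2% and 45.9% of all genes, and the median over the 81 stayed negative at -0.11. All 62 genes that were lower in total RNA were among the 77 that were higher in nuclear RNA. With 77 of the 81 higher in nuclear RNA, most of this overlap follows from the counts themselves. The share of all genes with each pair of calls was not counted. Another 9 were higher in Hom in both fractions (Atp5g2, Atp5l, Cox4i1, Cox6b2, Cox6c, Ndufa6, Ndufa7, Ndufb9 and Ndufb11), and 6 were higher in nuclear RNA with no call in total RNA (Atp5h, Cox6a2, Cox7b, Ndufa2, Ndufa11 and Uqcrh). Cox7a2l and Atp5s were higher in Hom in total RNA alone.

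**Figure D2:**
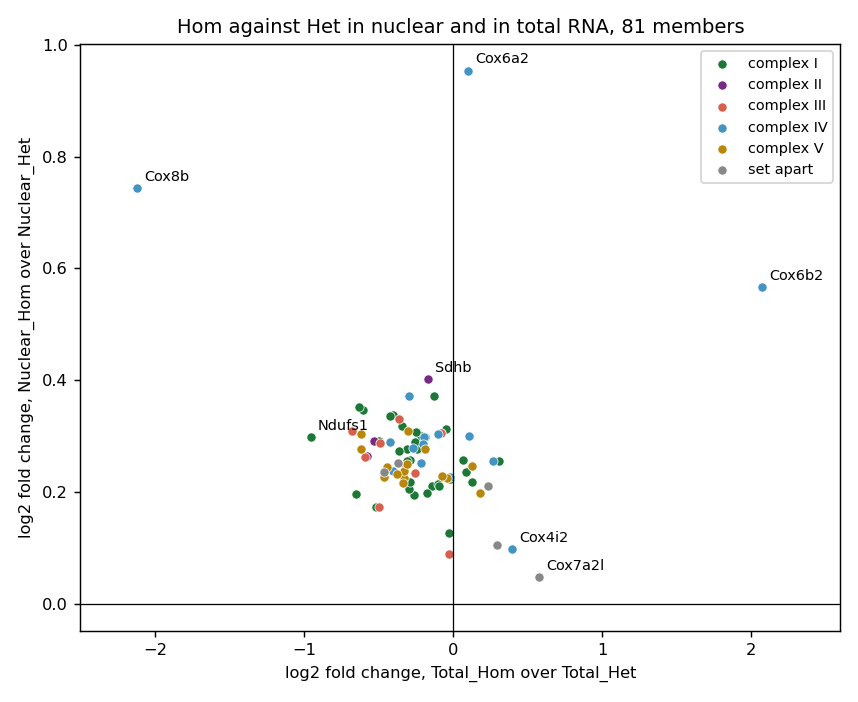
Log2 fold change of Hom over Het in nuclear RNA (vertical axis) against that in total RNA (horizontal axis), with a point per tested gene (81), coloured by complex. All 81 points lie above 0 on the vertical axis, most lie left of 0 on the horizontal axis, and Cox8b and Cox6b2 lie far out at -2.12 and 2.07.

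The 7 core subunits of complex I, which carry the flavin and iron-sulfur clusters from NADH to ubiquinone, were all higher in nuclear Hom and all lower in total Hom, against Het. Ndufs1, the largest of them, measured 295, 299 and 305 CPM in nuclear Hom, against 246, 239 and 242 CPM in nuclear Het. In total RNA it measured 191, 193 and 186 CPM in Hom, against 365, 370 and 370 CPM in Het. Neither pair overlapped, and the gap in total RNA was the largest fall among members above 5 CPM: the log2 fold change was 0.30 ± 0.03 in nuclear RNA (SE, edgeR adjusted p = 7.61e-18) and -0.95 ± 0.02 in total RNA (adjusted p = 6.13e-76). Ndufs7, which holds the cluster next to the quinone site, had the third largest nuclear rise among members above 5 CPM, after Cox6b2 and Sdhb, with 149, 163 and 159 CPM in Hom, against 124, 126 and 111 CPM in Het (log2 fold change 0.37 ± 0.04, edgeR adjusted p = 3.44e-13). In total RNA it lay at 119, 130 and 130 CPM in Hom, against 142, 133 and 140 CPM in Het, a narrow gap (-0.13 ± 0.05, edgeR adjusted p = 0.021) that did not pass without Total Hom replicate 1 (adjusted p = 0.063) or Total Het replicate 3 (adjusted p = 0.0772), and that turned to 0.027 with library totals.

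The accessory subunits of complex I, which surround the core and stabilise it, were less uniform in total RNA. All 27 tested were higher in nuclear Hom than in nuclear Het, while in total RNA 21 were lower and 4 (Ndufa6, Ndufa7, Ndufb9 and Ndufb11) were higher. Ndufv3, a small subunit of the NADH-binding module, lay at 128, 128 and 128 CPM in total Hom, against 202, 204 and 198 CPM in total Het (-0.65 ± 0.03, edgeR adjusted p = 2.69e-48). Ndufa7 went the other way, at 130, 142 and 140 CPM in total Hom, against 115, 112 and 107 CPM in total Het (0.31 ± 0.03, edgeR adjusted p = 3.8e-15). It was also higher in nuclear Hom, with 133, 144 and 131 CPM, against 118, 114 and 108 CPM in nuclear Het (0.26 ± 0.03, edgeR adjusted p = 1.07e-09), and in neither fraction did its Hom and Het libraries overlap. For Ndufb11, an X-linked subunit of the membrane arm, the total gap was small, at 203, 211 and 209 CPM in Hom, against 200, 190 and 198 CPM in Het (0.09 ± 0.03, edgeR adjusted p = 0.0023), and it did not pass without Total Het replicate 2 (adjusted p = 0.0521).

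Complex II, which also works in the citric acid cycle as succinate dehydrogenase, has no mitochondrially encoded subunit. All 4 of its genes were higher in nuclear Hom and lower in total Hom than in Het. The flavoprotein Sdha lay at 1046, 1045 and 1045 CPM in nuclear Hom, against 879, 861 and 858 CPM in nuclear Het, and at 682, 675 and 662 CPM in total Hom, against 1006, 1020 and 989 CPM in total Het. The groups were clearly apart in both fractions (0.27 ± 0.02, edgeR adjusted p = 4.23e-20 in nuclear RNA, and -0.58 ± 0.02, adjusted p = 8.23e-67 in total RNA). Sdhb had the largest nuclear rise of the complex, at 440, 470 and 466 CPM in Hom, against 359, 351 and 326 CPM in Het (0.40 ± 0.03, edgeR adjusted p = 1.25e-21), and the smallest total fall, at 383, 391 and 387 CPM in Hom, against 434, 442 and 430 CPM in Het (-0.17 ± 0.02, edgeR adjusted p = 2.24e-12). That fall was -0.02 with library totals and then did not pass (adjusted p = 0.744). The membrane anchors Sdhc and Sdhd fell by 0.53 ± 0.02 and by 0.31 ± 0.02 in total RNA on the log2 scale (edgeR adjusted p = 6.57e-50 and 5.97e-25).

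The 3 large subunits of complex III that the naming rule took, Uqcrc1, Uqcrc2 and Uqcrfs1, were all lower in total Hom than in total Het. Uqcrfs1, the Rieske iron-sulfur protein, lay at 275, 278 and 265 CPM in total Hom, against 443, 429 and 434 CPM in total Het (-0.67 ± 0.02, edgeR adjusted p = 7.41e-61). In nuclear RNA it lay at 378, 388 and 395 CPM in Hom, against 322, 310 and 300 CPM in Het (0.31 ± 0.03, edgeR adjusted p = 7.13e-19). The median log2 fold change in total RNA of the 3 genes was -0.59, against -0.25 for the 5 small subunits. Of these 5, 4 were lower in total Hom, among them Uqcr10 with 195, 197 and 198 CPM in Hom, against 239, 230 and 233 CPM in Het (-0.25 ± 0.03, edgeR adjusted p = 6.52e-17).

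In complex V the 5 genes of the F1 head and central stalk were all higher in nuclear Hom and all lower in total Hom, against Het. Atp5b lay at 3585, 3690 and 3698 CPM in nuclear Hom, against 3042, 3010 and 2963 CPM in nuclear Het (0.28 ± 0.02, edgeR adjusted p = 4.17e-26). In total RNA it lay at 2546, 2553 and 2563 CPM in Hom, against 3934, 3907 and 3891 CPM in Het (-0.61 ± 0.01, edgeR adjusted p = 2.54e-90). Its libraries were among the tightest of all members, and the total Hom level was also below that of any nuclear library. Of the 4 peripheral stalk genes 3 were lower in total Hom, and Atp5l, a subunit of the membrane part, was higher.

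In complex IV 3 genes were higher in Hom in both fractions, as were 4 in complex I and 2 in complex V. Its 10 widespread subunits were all higher in nuclear Hom than in nuclear Het, but in total RNA 7 were lower and 2, Cox4i1 and Cox6c, were higher. Cox4i1 lay at 1093, 1126 and 1118 CPM in total Hom, against 923, 927 and 917 CPM in total Het (0.27 ± 0.02, edgeR adjusted p = 1.61e-34), and at 1099, 1167 and 1143 CPM in nuclear Hom, against 973, 958 and 912 CPM in nuclear Het (0.26 ± 0.02, edgeR adjusted p = 2.03e-17). Its Hom over Het difference was thus about equal in the fractions. Cox6c lay at 342, 343 and 351 CPM in total Hom, against 325, 323 and 311 CPM in total Het (0.11 ± 0.02, edgeR adjusted p = 4.06e-06), with both far below the 476, 469 and 492 CPM of total WT. Cox7a2 and Cox8a were lower in total Hom by TMM (-0.21 and -0.20) but at -0.06 and -0.05 did not pass with library totals.

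Several complex IV subunits exist as a widespread and a tissue isoform. Cox6b2, known as the testis isoform of a subunit on the side facing the intermembrane space, lay at 27.5, 28.1 and 28.4 CPM in nuclear Hom, 18.9, 20.2 and 17.3 in nuclear Het and 17.7, 17.0 and 17.4 in nuclear WT. In total RNA it lay at 31.8, 36.3 and 32.8 CPM in Hom, 7.88, 6.82 and 9.35 in Het and 15.3, 16.6 and 16.5 in WT. The total groups were fully separate, in the order Hom, WT, Het. The log2 fold change of Hom over Het was 0.57 ± 0.06 in nuclear RNA (edgeR adjusted p = 1.3e-12) and 2.07 ± 0.08 in total RNA (adjusted p = 1.99e-52). Its widespread partner Cox6b1 lay at 400, 392 and 395 CPM in total Hom, against 527, 523 and 519 CPM in total Het (-0.40 ± 0.02, edgeR adjusted p = 4.24e-40). Per kb, Cox6b2 made up 6.50% ± 0.486 of the pair in total Hom, 1.24% ± 0.199 in total Het and 2.76% ± 0.146 in total WT, and 4.43% ± 0.111, 3.55% ± 0.238 and 2.55% ± 0.0513 in nuclear Hom, Het and WT (SD, n = 3 each).

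**Figure D3:**
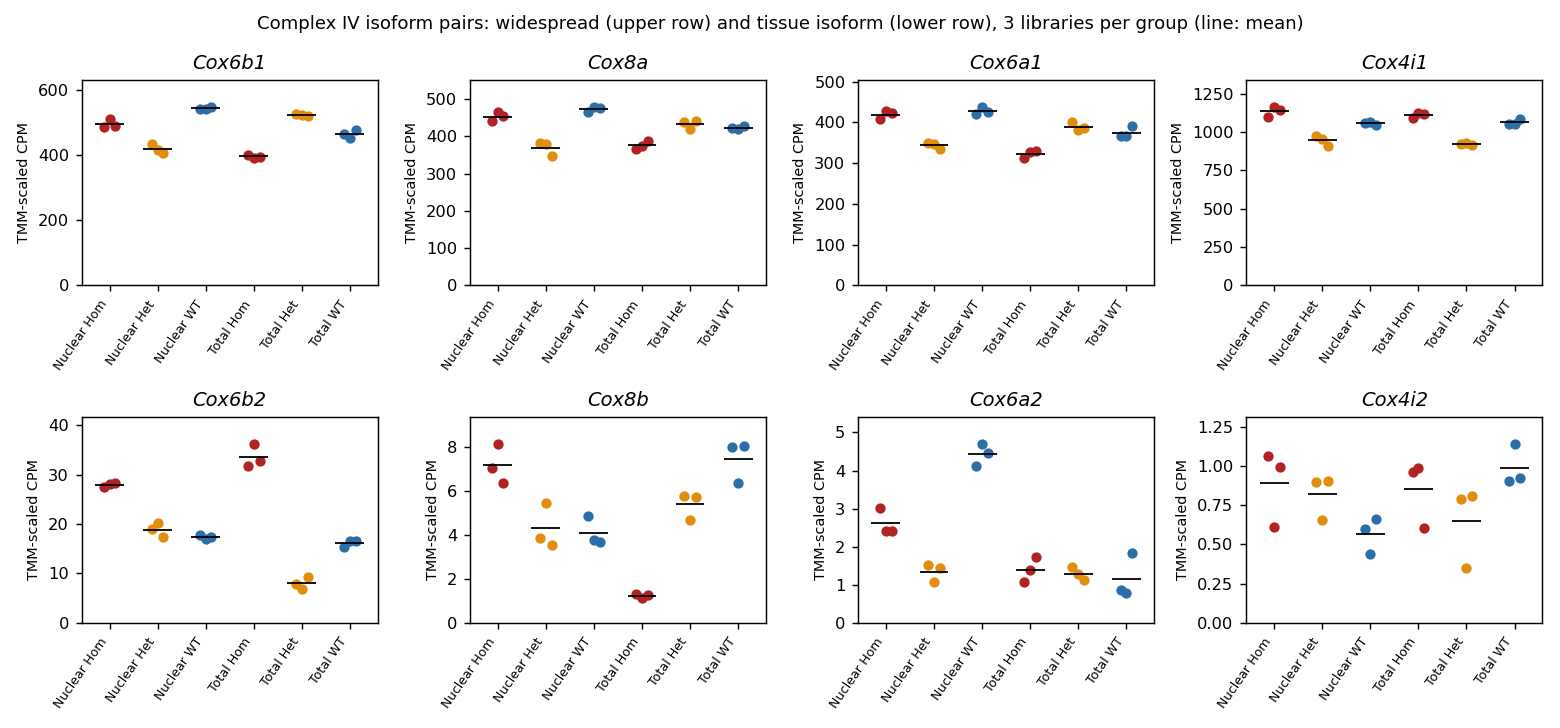
TMM-scaled CPM (vertical axes, each starting at 0) of the tissue isoforms of complex IV and their widespread partners in the 6 groups, with a point per library and a line at the mean of 3. Cox6b2 is highest and Cox8b lowest in the total Hom libraries.

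Cox8b, the heart and muscle isoform of Cox8a, went the opposite way to Cox6b2. It lay at 1.32, 1.13 and 1.26 CPM in total Hom, 5.78, 4.68 and 5.73 in total Het and 8.001, 6.386 and 8.060 in total WT, and its total Hom libraries were apart from all others (-2.12 ± 0.18 against Het, edgeR adjusted p = 1.8e-21). In nuclear RNA it lay at 7.08, 8.16 and 6.38 CPM in Hom, 3.88, 5.46 and 3.57 in Het and 4.86, 3.77 and 3.69 in WT (0.74 ± 0.13 for Hom against Het, edgeR adjusted p = 1.64e-06). At these levels a library held few counts of the gene compared with Cox8a, which averaged 376 ± 10.98 CPM in total Hom and 433 ± 11.3 CPM in total Het (SD, n = 3 each).

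Cox6a2, another heart and muscle isoform, lay at 3.01, 2.41 and 2.41 CPM in nuclear Hom, 1.51, 1.06 and 1.44 in nuclear Het and 4.13, 4.70 and 4.47 in nuclear WT, with no overlap and WT highest. In total RNA its groups overlapped, at 1.07, 1.38 and 1.72 CPM in Hom, 1.47, 1.27 and 1.12 in Het and 0.855, 0.779 and 1.85 in WT (0.10 ± 0.28 for Hom against Het, edgeR adjusted p = 0.759). Cox7a1, the heart and muscle isoform of Cox7a2, lay at 14.1, 16.2 and 15.7 CPM in total Hom, 19.7, 19.0 and 17.8 in total Het and 23.6, 25.3 and 23.5 in total WT, and the 3 groups did not overlap. Cox4i2, the isoform known from lung and from low oxygen, stayed near or below 1 CPM in every group and was not called in either Hom with Het comparison (adjusted p = 0.834 in nuclear and 0.332 in total RNA by edgeR).

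The 3 genes for the identical c subunit of complex V, Atp5g1, Atp5g2 and Atp5g3, did not keep their proportions. In total RNA Atp5g3 lay at 606, 612 and 630 CPM in Hom, against 774, 773 and 783 CPM in Het (-0.33 ± 0.02, edgeR adjusted p = 1.47e-38), and Atp5g1 at 191, 189 and 196 CPM, against 263, 266 and 263 CPM (-0.46 ± 0.02, adjusted p = 2e-38). Atp5g2 was higher, at 103, 108 and 102 CPM in Hom, against 98.9, 92.2 and 94.5 CPM in Het (0.13 ± 0.03, edgeR adjusted p = 0.000297). Its share of the 3 genes per kb was 13.1% ± 0.491 in total Hom, against 9.65% ± 0.333 in total Het and 9.13% ± 0.169 in total WT, and 9.86%, 9.69% and 9.23% in nuclear Hom, Het and WT (SD, n = 3 each).

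Among the 5 genes kept apart, Cox7a2l, known as SCAF1, a factor that joins complexes III and IV into supercomplexes, stood against the trend. It lay at 137, 139 and 143 CPM in total Hom, 91.4, 95.0 and 94.4 in total Het and 111, 112 and 115 in total WT (0.58 ± 0.03 for Hom against Het, edgeR adjusted p = 5.24e-37). In nuclear RNA it lay at 113, 118 and 118 CPM in Hom, against 113, 113 and 110 CPM in Het, and the groups overlapped (0.05 ± 0.03, edgeR adjusted p = 0.271). Ndufa4 followed the majority, with 0.24 ± 0.02 in nuclear and -0.46 ± 0.02 in total RNA (edgeR adjusted p = 2.67e-14 and 4.76e-48), and Atp5sl, known as DMAC2 and as a complex I assembly factor, did as well (0.25 ± 0.04 and -0.37 ± 0.04, adjusted p = 6.75e-07 and 3.46e-14).

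Both mutant genotypes were then set against WT within each fraction. The 2 comparisons of a fraction share the WT libraries, and in nuclear RNA both mutant groups were high in Xist and WT low, while in total RNA it was the reverse. In nuclear RNA, 16 of 81 genes were higher and 26 lower in Hom than in WT, against 26.5% and 27.8% of all genes, with a median of 0.01. This balance rested on the scaling: with library totals, which raised the all-gene median by 0.12, 50 were higher and 10 lower, against 44.1% and 15.6% of all genes. Without Nuclear Hom replicate 1 the number higher was 25. Among genes above 5 CPM, the largest rises were those of Cox6b2 (0.69 ± 0.07, edgeR adjusted p = 3.19e-16), Ndufb11 and Ndufa7 (0.23 ± 0.03 and 0.22 ± 0.03), and the largest falls those of Atp5sl, Ndufa1 and Ndufs1 (-0.30 ± 0.04, -0.28 ± 0.03 and -0.27 ± 0.03).

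Nuclear Het differed from nuclear WT in a single direction. None of the 81 genes was higher, at an adjusted or unadjusted p under 0.05 by edgeR or with DESeq2, and 74 were lower, against 32.8% and 31.7% of all genes; 1 was higher without Nuclear Het replicate 3. The median was -0.26, and all genes tested of complexes II, III and V were lower. Among genes above 5 CPM, the largest falls were those of Ndufs1 (-0.57 ± 0.03, edgeR adjusted p = 6.93e-36), Atp5sl and Ndufa10, a supernumerary subunit of complex I, with 214, 208 and 208 CPM in Het, against 304, 311 and 309 CPM in WT (-0.54 ± 0.03, adjusted p = 4.85e-33). Below that level, Cox6a2 fell by 1.70 ± 0.19 (adjusted p = 3.13e-13). With library totals, which raised the all-gene median by 0.18, 44 were lower and 8 higher, against 17.0% and 53.7% of all genes, with a median of -0.09.

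In total RNA 68 of 81 genes were lower and 6 higher in Hom than in WT, against 31.0% and 30.6% of all genes, with a median of -0.28. The lower genes included 32 of 34 in complex I, 3 of 4 in complex II, 8 of 8 in complex III, 11 of 15 in complex IV and 13 of 15 in complex V. Ndufc1, a small membrane subunit of complex I, lay at 58.5, 59.7 and 58.8 CPM in total Hom, against 89.3, 91.3 and 94.8 CPM in total WT (-0.64 ± 0.03, edgeR adjusted p = 1.35e-38). Atp5k, a small membrane subunit of complex V known for its role in dimers of the enzyme, lay at 103, 135 and 129 CPM, against 177, 208 and 194 CPM (-0.66 ± 0.11, edgeR adjusted p = 0.00244), and Cox7a1 fell by 0.65 ± 0.07 on the log2 scale (adjusted p = 6.45e-15). The 3 largest rises were those of Cox6b2 (1.06 ± 0.07, edgeR adjusted p = 3.92e-30), Cox7a2l (0.31 ± 0.03, adjusted p = 5.99e-17) and Atp5s, the coupling factor B-like protein, with 17.4, 16.3 and 16.0 CPM in Hom, against 13.2, 13.3 and 13.7 CPM in WT (0.31 ± 0.08, adjusted p = 0.000433). With library totals 68 were lower and 4 higher, against 31.4% and 25.9% of all genes.

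**Figure D4:**
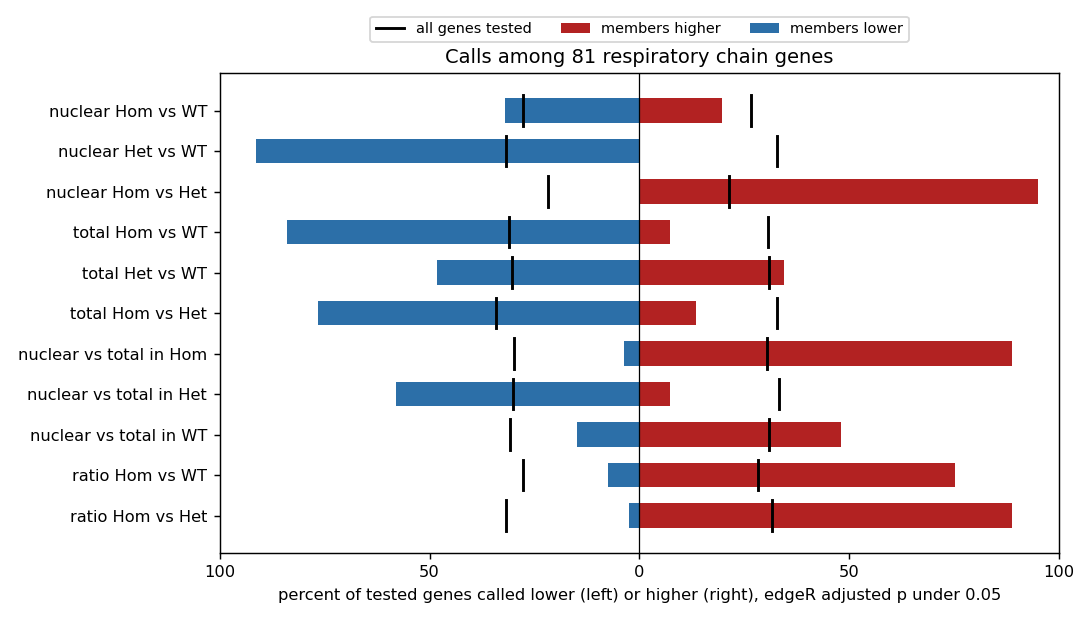
Percent of the 81 tested genes called higher (red bars, right of 0) or lower (blue bars, left of 0) by edgeR at an adjusted p under 0.05 in each comparison, with black marks at the percent of all genes tested. The Hom with Het comparisons in nuclear and in total RNA point to opposite sides.

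Total Het against total WT split the complexes: 28 of 81 genes were higher and 39 lower, against 30.9% and 30.3% of all genes, with a median of -0.06. Higher in Het were all 4 genes of complex II, Uqcrc1, Uqcrc2 and Uqcrfs1 of complex III and 4 of the 5 F1 genes of complex V. Lower were 7 of the 10 widespread subunits of complex IV, 17 of the 27 accessory subunits of complex I and 3 of the 5 small subunits of complex III. Ndufs1 was highest among the rises, with 365, 370 and 370 CPM in total Het, against 273, 278 and 279 CPM in total WT (0.41 ± 0.02, edgeR adjusted p = 8.95e-36), followed by Ndufa10 and Ndufv3 (each 0.37). Among genes above 5 CPM, Cox6b2 (-1.01 ± 0.09, adjusted p = 5.49e-20), Cox6c (-0.58 ± 0.02, adjusted p = 2.11e-54) and Cox7a1 (-0.36 ± 0.07, adjusted p = 4.97e-06) had the largest falls. Just below that level, Cox8b fell by 0.47 ± 0.13 (adjusted p = 0.000678). With library totals, which lowered the all-gene median by 0.18, 7 genes were higher and 53 lower, against 15.9% and 49.1% of all genes, and the medians of complexes II and III turned to -0.01 and -0.12, so for these 2 complexes the direction against WT depends on the scaling, while their medians stayed above those of complexes I, IV and V (-0.29, -0.42 and -0.24).

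The split went along with gene length among the members. Across the 81 genes, Spearman's rho between the deposited length and the log2 fold change of total Het over total WT was 0.485, and it was -0.00502 across all 15051 genes tested. The genes share their libraries and are not independent replicates, so no p is given. For nuclear Hom against nuclear WT the values were -0.423 over the members and -0.0822 over all genes, and for total Hom against total Het -0.196 and -0.036. Several large catalytic subunits have long genes in the table, such as Ndufs1 (2927 bases), Sdha (2859) and Atp5b (1879). Other long genes went the other way: the accessory subunits Ndufa11 (2661 bases) and Ndufb8 (2318) averaged 98.3 and 395 CPM in total Het, against 106 and 433 in total WT. For total Het against total WT, rho with the expression level was 0.369 over the members and 0.25 over all genes. Whether length, level or role sets the split was not tested.

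**Figure D5:**
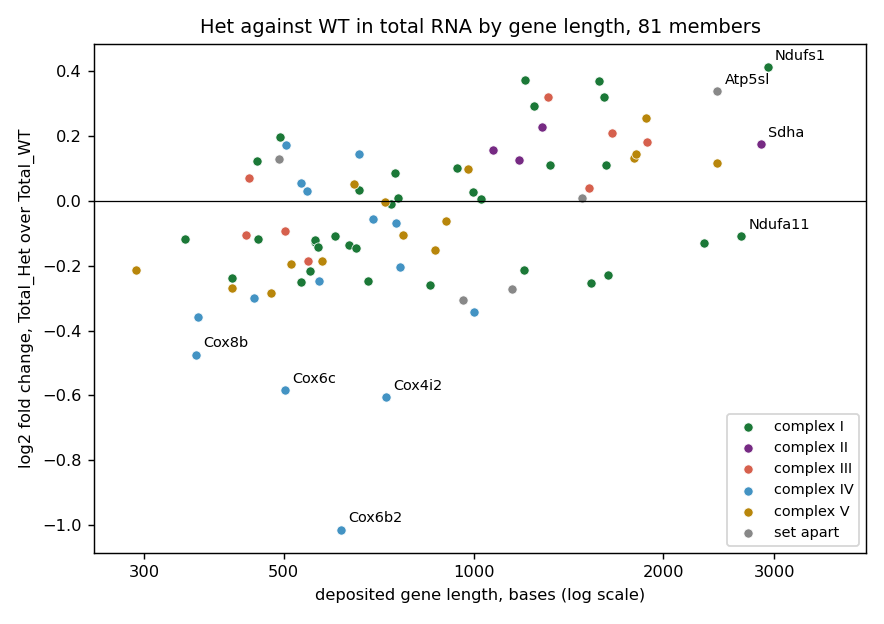
Log2 fold change of total Het over total WT (vertical axis) against the deposited gene length in bases (horizontal log axis), with a point per tested gene (81), coloured by complex. Of the long genes, Ndufs1, Ndufa10 and Ndufv3 lie highest, and the low points include the complex IV genes Cox6b2, Cox4i2, Cox6c and Cox8b.

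The fractions were compared within each genotype, on TMM-scaled CPM, which gives a level relative to the bulk of genes in each fraction and not an amount of RNA per nucleus. In Hom 72 of 81 genes were higher in nuclear than in total RNA and 3 lower (Atp5s, Cox7a2l and Cox6b2), against 30.5% and 29.8% of all genes, with a median of 0.36. The largest differences among genes above 5 CPM were those of Ndufc1 (98.2 ± 4.54 CPM in nuclear, against 59.0 ± 0.577 in total Hom) and Atp5k (200.4 ± 16.9, against 122 ± 17.2), with log2 fold changes of 0.73 ± 0.04 and 0.71 ± 0.09 (edgeR adjusted p = 4.26e-42 and 1.96e-05). In Het the balance was the other way, with 6 higher and 47 lower in nuclear RNA, against 33.4% and 30.2% of all genes and a median of -0.14, but with library totals the median was 0.06, with 36 higher and 22 lower, against 55.5% and 16.3%. In WT 39 were higher and 12 lower, against 30.9% and 30.8%, with a median of 0.07 that turned to -0.09 with library totals (16 higher and 40 lower, against 16.1% and 47.4%). The 12 lower in WT were 6 without Nuclear WT replicate 1, 7 without Total WT replicate 3 and 3 with the deposited column of Total WT replicate 1. The direction held under both scalings in Hom, and not in Het or WT.

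The genotype dependence of the nuclear-to-total ratio was tested as an interaction. Against Het, the ratio was higher in Hom for 72 of the 81 genes and lower for 2, against 31.7% and 31.9% of all genes, with a median of 0.55. The median was 0.52 in complex I, 0.70 in II, 0.69 in III, 0.49 in IV and 0.56 in V. The ratio in Hom against WT was higher for 61 genes and lower for 6, against 28.4% and 27.7%, with a median of 0.23. With library totals the counts were 59 higher and 6 lower against Het (19.2% and 46.7% of all genes), with a median of 0.34, and 71 higher and 2 lower against WT (40.5% and 17.0%), with a median of 0.38. The 2 genes with a lower ratio in Hom than in Het were Cox6b2 and Cox7a2l. Nuclear Hom and Het were both high in Xist and total Hom and Het both low, so the ratio crosses Xist state in Hom and in Het alike. In WT it crosses the other way, with nuclear RNA low and total RNA high in Xist. The ratio in Hom against WT therefore sets opposite Xist layouts against each other, and genotype cannot be told apart from Xist state there.

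Genes that work beside the chain were described from lists by function. Over all genes tested, 21.4% were higher and 21.8% lower in nuclear Hom, and 32.9% higher and 34.1% lower in total Hom, against Het. All 18 genes of the citric acid cycle and pyruvate dehydrogenase were higher in nuclear Hom and lower in total Hom, against Het, with medians of 0.26 and -0.62. Suclg2, a subunit of succinate-CoA ligase, averaged 289 CPM in total Hom, against 517 CPM in total Het (-0.84 ± 0.02). Of 78 mitochondrial ribosomal protein genes, 59 were higher and 0 lower in nuclear Hom, and 7 were higher and 53 lower in total Hom, while of 46 assembly factor genes 31 were higher and 0 lower in nuclear Hom and 4 higher and 32 lower in total Hom. The medians of these 3 lists kept their sign with library totals. Cycs, the mobile carrier cytochrome c, had the largest fall of the chain's partners in total RNA, at 126 ± 2.16 CPM in Hom, against 271 ± 6.23 CPM in Het (-1.10 ± 0.03; SD of CPM, n = 3 each). The TOM and TIM import genes (25 tested) were 12 higher and 0 lower in nuclear Hom and 2 higher and 20 lower in total Hom.

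Markers of the kidney's cell types also moved between these groups. Their calls stand beside 21.4% of all genes higher and 21.8% lower in nuclear Hom against Het. In total Hom against Het these shares were 32.9% and 34.1%. The 20 proximal tubule markers, of which none was at 0, summed to 45065 to 45712 CPM in nuclear Hom, against 40024 to 41205 CPM in nuclear Het, and 16 were higher and 3 lower. In total RNA the proximal tubule markers summed to 42406 to 43016 CPM in Hom, against 76329 to 77455 CPM in Het, and 4 were higher and 15 lower. The marker sum and the respiratory chain sum thus had the same order between Hom and Het in both fractions, and their part in the result was not tested. Against WT the sizes of the differences were unlike. The marker sum averaged 45384 CPM in nuclear Hom, 40655 in nuclear Het and 68732 in nuclear WT, and the chain sum 28051, 23295 and 29169 CPM. In total Het and total WT the marker sum averaged 76833 and 42691 CPM, and the chain sum 26924 and 26103 CPM. Between total Hom and total WT the marker sums overlapped, at 42406 to 43016 CPM in Hom and 42388 to 43024 CPM in WT. By gene, 11 of these 20 markers were higher and 9 lower, against 30.6% and 31.0% of all genes. Their log2 fold changes lay between -1.56 and 5.54. The 12 immune markers summed to 627 to 652 CPM in nuclear Hom, against 1788 to 1889 CPM in nuclear Het, with 0 higher and 11 lower, and in total RNA to 1194 to 1209 CPM in Hom, against 1224 to 1234 CPM in Het, with 3 higher and 4 lower. The 12 podocyte markers went against the respiratory chain, with 2 higher and 8 lower in nuclear Hom and 10 higher and 0 lower in total Hom, against Het. Of the 12 endothelial markers, 6 were higher and 1 lower in nuclear Hom and 11 higher and 0 lower in total Hom, against Het. Of the 10 collecting duct markers, 2 were higher and 5 lower in nuclear Hom and 8 higher and 1 lower in total Hom. In nuclear Hom 7 of 10 thick ascending limb and distal tubule markers were higher and 0 lower than in Het. In total Hom 5 of these 10 were higher and 5 lower than in Het. The part of these cell types in the results was not tested.

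Promoter motifs were also counted by how the genes moved. Among the 55 genes with a promoter that were higher in nuclear and lower in total Hom than in Het, 12 held an NRF1 match (21.8%), 13 an ETS match (23.6%) and 15 a YY1 match (27.3%). Among the other 14 genes with a promoter, 5 (35.7%), 3 (21.4%) and 3 (21.4%) did. The printed promoters of Sdha, Atp5g3, Cox6b1 and Atp5b were chosen from the larger set, so their place in it is not a result. Cox6b2, printed in addition, belonged to the smaller set.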

How the data were processed

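Per the labels' protocols, TRIzol served for RNA isolation and a KAPA Stranded mRNA-Seq kit for the libraries. Per the submitters' processing notes, the tools were STAR 2.5.2b, CASAVA, DESeq2 and featureCounts, with the build mm9. The annotation, the counting strand and the handling of reads with several matches are not given in the sources used here, so reads of overlapping and antisense genes cannot be told apart.

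The deposited table holds raw counts per gene, made by the authors, for 18 libraries, with a gene length. The deposited column of Total WT replicate 1 summed to 200140709 counts, 10.2 times the mean of the others. For 0 genes did it lie below the sum of the 9 nuclear columns, and subtracting that sum left 19034520 counts, which were used as that library. After this the libraries held 17405493 to 23462056 counts. The members, gene lists and tests were chosen with earlier results of these data known.

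Counts were scaled to TMM CPM and tested in R 4.3.3 with edgeR 4.0.16 (filterByExpr with a minimum count of 10, quasi-likelihood test, Benjamini-Hochberg adjustment over all genes, threshold 0.05). Nuclear (15112 genes) and total (15051) libraries were fitted apart, and fraction comparisons and ratios in all 18 libraries (15410). Errors of log2 fold changes are SE. Named genes were members with a mean of at least 5 CPM, an adjusted p under 0.05 and groups that did not overlap, the 3 largest rises and falls for each genotype comparison and 2 and 2 for each fraction comparison, plus the isoform sets, complex II, the highest gene per kb of each complex and up to 3 genes of smallest p per pathway list. Genes named beyond these, such as those in a count of 9 or fewer, were chosen after their values were seen. Alternatives were DESeq2 1.42.0, other scalings, filters, fits, the replicate block and leaving out each library. Scripts were tested on simulated data. Promoters are from RefSeq GRCm38.p6. The result of 1 gene is not reported here.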

Additional observations from a re-analysis of the deposited data

Results flagged for a closer look

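The difference between nuclear and total RNA was not the same in the genotypes. Tested as an interaction in edgeR at an adjusted p under 0.05, the nuclear-to-total ratio was higher in Hom than in Het for 72 respiratory chain genes and lower for 2, against 31.7% and 31.9% of all genes. The ratio was higher in Hom than in WT for 61 genes and lower for 6, against 28.4% and 27.7% of all genes. The nuclear and total libraries of each genotype differed in Xist state, and its part in the ratios cannot be told apart from that of the fraction. The direction was the same in Hom and Het but opposite in WT, so Hom against WT also confounds genotype with Xist state.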

How the results depend on the processing

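Both Hom with Het directions held under every alternative run: in nuclear RNA 75 to 77 genes were higher and 0 lower when single libraries were left out, and in total RNA 10 to 11 were higher and 57 to 63 lower. Leaving out single libraries gave 14 to 25 higher and 23 to 29 lower for nuclear Hom against WT (25 higher without Nuclear Hom replicate 1), 0 to 1 higher and 70 to 74 lower for nuclear Het against WT, 5 to 7 and 67 to 68 for total Hom against WT, and 25 to 29 and 37 to 39 for total Het against WT. For nuclear against total RNA it gave 71 to 74 higher and 3 lower in Hom, 5 to 9 and 44 to 47 in Het, and 35 to 43 and 6 to 10 in WT (6 lower without Nuclear WT replicate 1 and 7 without Total WT replicate 3). For the ratios it gave 58 to 65 higher and 6 to 8 lower in Hom against WT, and 69 to 73 and 2 in Hom against Het.

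With library totals, nuclear Hom against WT had 50 higher and 10 lower, nuclear Het against WT 8 and 44, total Het against WT 7 higher, total Hom against Het 18 higher, nuclear against total 36 and 22 in Het and 16 and 40 in WT, and the ratios 2 lower in Hom against WT and 6 lower in Hom against Het. With only genes of at least 5 CPM, 29 of 78 were higher in nuclear Hom than in WT, against 29.9% of all genes. Under this filter 2 of 78 were higher in nuclear Het than in WT, against 34.6%. In nuclear against total WT 19 of 77 were then lower, against 33.1%. With the deposited column of Total WT replicate 1, 3 were lower in nuclear than in total WT, against 25.8% of all genes. With that column 3 had a lower ratio in Hom than in WT, against 23.3%. Ndufs7, at -0.13 for total Hom against Het, was at 0.027 with library totals. The cause of these changes was not tested.

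Over all pairs of groups, 3 of 45 correlations between libraries of the same replicate number were over 0.1 (median 0.0141), but most of these pairs join different genotypes. Between nuclear and total Hom the same-number values were 0.0622, 0.074 and 0.101, against means of -0.0349, -0.0458 and -0.0379 for other numbers. In Het and in WT the same-number values had mixed signs. Whether the numbers pair libraries of a genotype is not settled by these values. A replicate block gave 17 higher and 27 lower for nuclear Hom against WT, 77 and 0 for nuclear Hom against Het, 11 and 61 for total Hom against Het, and 73 and 2 for the ratio in Hom against Het, and it moved no count by over 1.5 times. Isoforms near 1 CPM rest on few counts.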

Other observations

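Regulators of mitochondrial gene expression were less uniform than the genes of the chain. Of 22 tested, 13 were higher and 1 lower in nuclear Hom than in nuclear Het, and 5 were higher and 15 lower in total Hom than in total Het, the medians keeping their sign with library totals. Ppara, a nuclear receptor of fatty acid oxidation, averaged 168 CPM in nuclear Hom, against 121 CPM in nuclear Het (0.47 ± 0.03, SE, by edgeR). Pprc1, a coactivator of the PGC-1 family, was the gene that was lower, at 20.6 CPM in nuclear Hom, against 27.2 CPM in nuclear Het. In total RNA the orphan receptors Esrrg and Esrrb moved in opposite directions. Esrrg averaged 60.2 CPM in total Hom, against 91.9 CPM in total Het (-0.61 ± 0.03), and Esrrb averaged 82.7 CPM in total Hom, against 54.3 CPM in total Het (0.61 ± 0.04).

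Acad9, an acyl-CoA dehydrogenase that also works in complex I assembly, averaged 90.3 CPM in total Hom, against 162 CPM in total Het (-0.84 ± 0.03). Lrpprc, which stabilises mitochondrial mRNAs, averaged 90.7 CPM in total Hom, against 159 CPM in total Het (-0.81 ± 0.03).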
